A study of Rattus norvegicus with 4 samples.

Results

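The interleukins and the tumor necrosis factor (TNF) family, together with their receptors, were examined in the rat hippocampus after wheel running. Genes were taken in when an array probe's RefSeq record carried a symbol beginning with Il and a digit, Tnfsf or Tnfrsf, or was Tnf, Lta, Ltb, Ifng, Ifngr1, Lif, Lifr, Osm or Cntf. This gave 67 genes out of 8899 named genes on the array, measured by 78 probes out of 41012. Of the 67 genes, 58 had 1 probe and 9 had several, and 6 of the 78 probes were printed as 10 spots each.

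Cytokines of these families are secreted or membrane-bound signals that cells read through surface receptors. IL-1 and TNF family receptors work through adaptor proteins to the transcription factor NF-kappaB, while most other interleukin receptors use JAK kinases and STAT transcription factors. In the brain, microglia and astrocytes are the main makers of IL-1 beta, TNF and IL-6, and neurons, glia and vessels carry many of the receptors. Several of the ligands are transcribed at very low levels in unstimulated brain tissue.

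Male Wistar rats, 10 weeks old at the start, were sedentary (10 rats), ran voluntarily on an unloaded wheel (wheel running, WR, 8 rats) or ran on a wheel whose resistance was raised stepwise to 30% of body weight (resistance wheel running, RWR, 8 rats) for 4 weeks. Hippocampi were dissected on the day after the last exercise day, and RNA of replicate animals was pooled within each group. The labels do not state how many of the rats entered each pool. Each running pool was hybridized against a sedentary pool on 2 chips with the Cy3 and Cy5 dyes exchanged. WR was in Cy5 on chip 1 and in Cy3 on chip 2, and RWR in Cy5 on chip 3 and in Cy3 on chip 4. The sedentary pool is taken to be the same on all 4 chips. Since a pair repeats 1 hybridization of pools, there is 1 biological replicate per comparison, an SD over a pair is technical, and no test between conditions exists. The number of chips limits the precision. A chip value below is the log2 ratio of running over sedentary, and a pair is given with the running pool in Cy5 first and in Cy3 second.

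To show regulatory letters that these families are known for, the 250 bases before the annotated start were read from RefSeq (GRCr8) for the 48 of 67 genes that matched. They gave 50 promoters, and each motif was searched on both strands. The NF-kappaB motif, GGGA and TTCC with 2 free bases between them, was in 2 of the 50 promoters (4.0%) and in 1.08% of all 33469 promoters of this length. The AP-1 motif TGANTCA was in 6 (12.0%, against 6.34%), and the STAT motif TTCNNNGAA in 4 (8.0%, against 7.67%). The sequences below run 5′ to 3′ on the gene's strand, with the motif in capitals. They are the NF-kappaB matches, which are Il6 (chr4:5894624-5894653, minus strand) and Ltb (chr20:3634060-3634089, minus strand, motif on the opposite strand), and the AP-1 matches of 4 genes whose ratios are described later, Il1a (chr3:136990018-136990039, minus), Tnfrsf1b (chr5:162387581-162387607, minus), Cntf (chr1:219314591-219314617, minus) and Il15 (chr19:42544520-42544546, plus).
Il6: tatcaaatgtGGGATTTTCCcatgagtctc
Ltb: tagggtgttcGGAAAGTCCCaggcagggga
Il1a: gagagaagccTGACTCAgactt
Tnfrsf1b: ggagagagacTGAGTCActccaggaag
Cntf: ctgccacctcTGAGTCAggcagggggt
Il15: actgggaagaTGATTCAagaggggtcc
A match is a run of letters and not a measured binding site.

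Fewer probes of these families gave a clear signal than of the whole array. The scanner software marks a spot in a dye as well above background or not, and with 4 chips of 2 dyes a probe has 8 such channels. Of the 78 member probes, 33 (42.3%) were well above background in all 8 channels, against 60.9% of all probes. Another 20 (25.6%) were well above background in no channel, against 12.4% of all probes. By gene, 31 of 67 had such a probe in all 8 channels, 19 in 1 to 7 and 17 in none. In whole tissue, fewer cells of a type and less RNA per cell cannot be told apart.

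**Figure D1:**
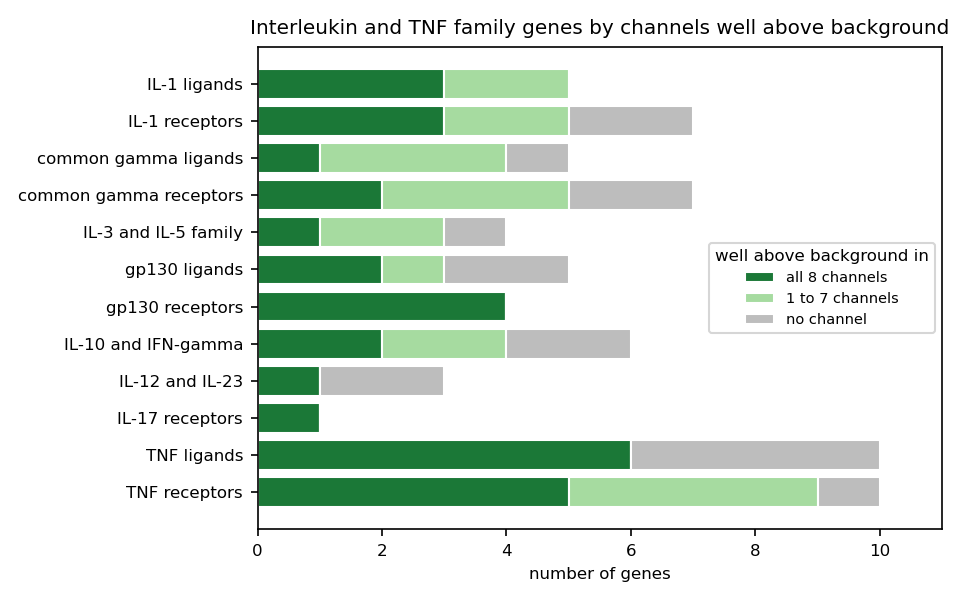
Number of genes (horizontal axis) of each ligand or receptor group that had a probe well above background in all 8 channels, in 1 to 7 channels or in no channel. All 4 gp130 receptors lie in the first class, as do 6 of 10 TNF ligands, while 1 of the 5 genes drawn as common gamma ligands does. The groups drawn as common gamma ligands and receptors also hold Il13 and its receptors, which are not common gamma genes in the strict sense.

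Every ligand and receptor group had at least 1 gene well above background in all 8 channels. All 4 receptors of the gp130 group belonged to them, namely Il6st, the shared signal-transducing subunit gp130 itself, Il6r, Lifr and Il11ra1. So did Ifngr1, a chain of the interferon gamma receptor, Il1rap, the co-receptor of the IL-1 receptor, and Tnfrsf1a, the main TNF receptor of most cells. Among the ligands the measurable genes included Il18 and Il33, IL-1 family cytokines, Cntf, a trophic factor of glia, Il15, and 6 TNF family ligands, Ltb, Tnfsf4, Tnfsf9, Tnfsf12, Tnfsf13 and Tnfsf15. In contrast, Tnf itself, Ifng, Il7, Il12b, Il23a, Il11, Osm and Lta were well above background in no channel. For Lta, lymphotoxin alpha, the ratio was listed at 0 on all 4 chips, the value the software gives when it finds no measurable ratio.

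After WR, no member passed the fold limits. A probe was called when running over sedentary was above 1.5-fold or below 0.75-fold (log2 0.585 and -0.415) on both chips of the pair, and 0 of 78 member probes were called beside 0.549% of all probes (0.212% higher and 0.337% lower). Adding a p under 0.01 from the software's single-chip error model on both chips also left 0 of 78, beside 0.0317% of all probes. The median log2 ratio over the 67 genes, each by its brightest probe, was 0.02, and over all named genes it was 0.0016.

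After RWR, 1 of 78 member probes (1.28%) was called, beside 1.48% of all probes in either direction, 1.40% in the lower and 0.0878% in the higher direction, so the share was near the background. The probe (A_44_P452261) is 1 of the 2 for Il2ra, the alpha chain of the IL-2 receptor. Its ratios were -0.96 and -1.11 in the RWR pair, with a mean of -1.04 ± 0.11 (SD, 2 chips). Neither dye of this probe rose well above background on any of the 4 chips, and no fold is given. In the WR pair the same probe read -0.36 and 0.92. The brighter Il2ra probe (A_43_P11741) read 0.60 and -0.35 in RWR and 2.28 and -1.70 in WR, so it changed sign with the dye in both pairs and did not follow the other probe. With the error model p added, 0 of 78 were called, beside 0.0585% of all probes. The median over the 67 genes was -0.0056 in RWR, and over all named genes -0.0047.

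Most ratios of the families changed sign when the dyes were exchanged. In the WR pair 54 of 78 member probes (69.2%) had opposite signs on the 2 chips, as did 70.3% of all probes. In the RWR pair it was 49 (62.8%), against 67.6% of all probes. Across the 78 probes, which are not independent replicates, Pearson's r between the chips of a pair was -0.768 for WR and -0.602 for RWR, and over all probes -0.761 and -0.686. The dye of each pool was taken from the labels. Of the probes with the same sign on both chips, 7 were below 0 and 9 above in WR, and 14 (17.9%, against 14.8% of all probes) were below 0 and 8 above in RWR.

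**Figure D2:**
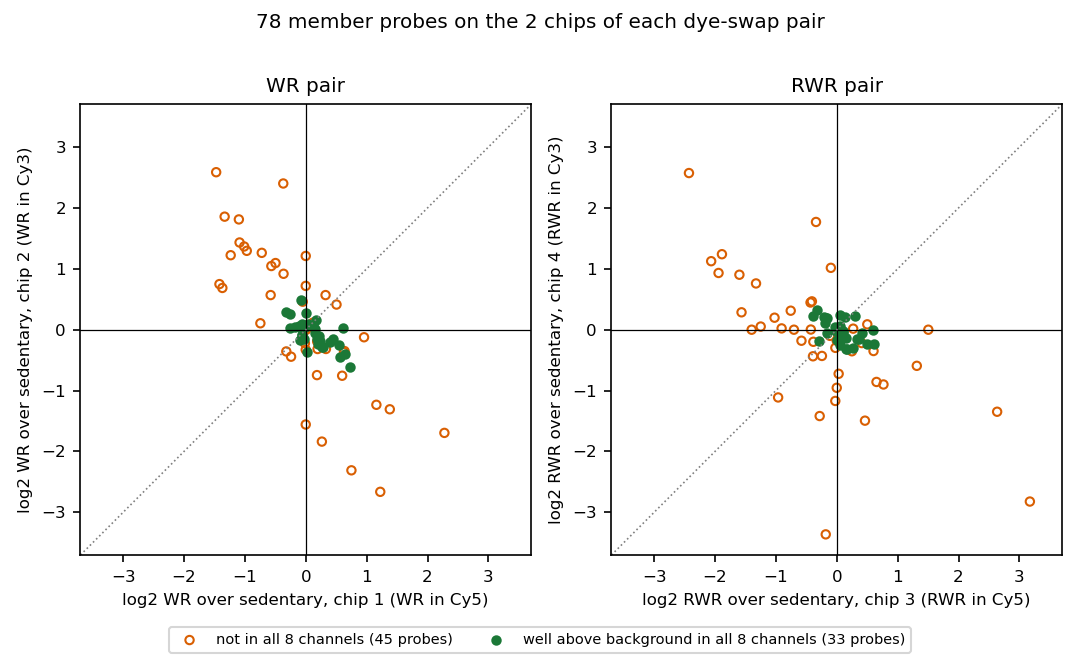
Log2 ratio of running over sedentary of the 78 member probes on the chip with the running pool in Cy5 (horizontal axis) and in Cy3 (vertical axis), for WR (left) and RWR (right). Equal values would lie on the dotted diagonal. The points run across it, and the widest values, from -3.36 to 3.17, belong to the 45 probes that were not well above background in all 8 channels (open circles).

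The size of a ratio went with the background flags of the probe. The 33 probes well above background in all 8 channels lay between -0.62 and 0.73 on every chip, with a median absolute log2 ratio of 0.16 to 0.17. The other 45 lay between -3.36 and 3.17, with medians of 0.44 to 0.75. The median SD of a pair was 0.23 in WR and 0.21 in RWR for the bright probes and 0.86 and 0.76 for the others. Of the 33 bright probes, 5 passed a fold limit on at least 1 chip (Il15, Lif, Il1rn, Tnfsf15 and Tnfsf9) and none passed in the same direction on both chips of a pair. Il1rn passed on both WR chips in opposite directions. The share past a limit among all bright probes of the array was not counted.

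**Figure D3:**
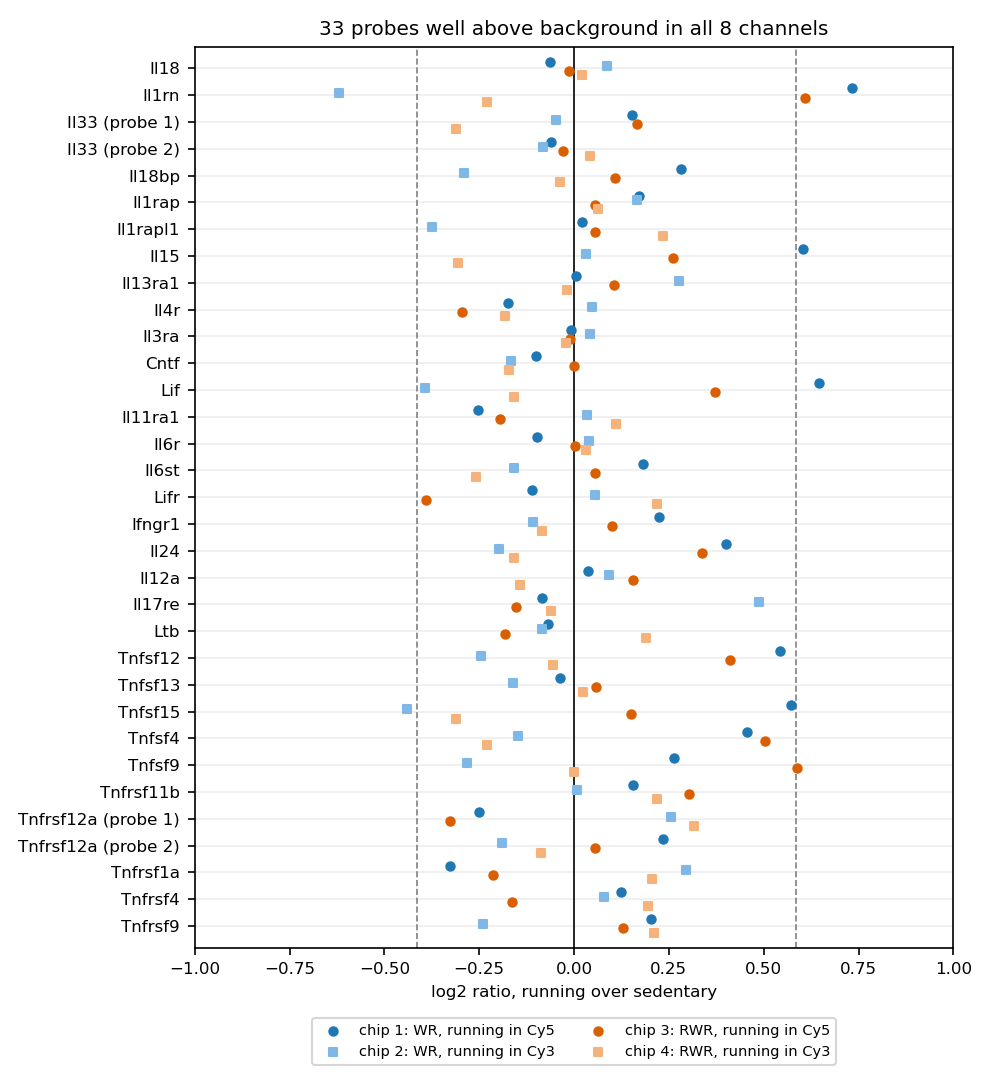
Log2 ratio of running over sedentary on each of the 4 chips for the 33 member probes well above background in all 8 channels, ordered by ligand and receptor group. Dashed lines mark the fold limits at -0.415 and 0.585. All points lie between -0.62 and 0.73, and the circle and the square of a pair lie on opposite sides of 0 in 23 of 33 probes in WR and in 23 in RWR.

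Among the IL-1 receptors, Il1rap had the closest pairs. It read 0.17 and 0.16 in WR (mean 0.17 ± 0.0044, SD of 2 chips) and 0.054 and 0.063 in RWR (mean 0.06 ± 0.0063). All 4 values were above 0, and both comparisons are taken to use the same sedentary pool. Il1rapl1, a neuronal relative that organizes synapses, read 0.02 and -0.37 in WR and 0.05 and 0.24 in RWR. Its WR pair had no common sign and its RWR mean was 0.14 ± 0.13. Il18bp, the secreted protein that binds IL-18, followed the dye, with 0.28 and -0.29 in WR and 0.11 and -0.04 in RWR.

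Of the IL-1 ligands, Il18 stayed within 0.09 of 0 on every chip, at -0.06 and 0.09 in WR and -0.01 and 0.02 in RWR. Il33, an alarmin held in glial nuclei, read -0.06 and -0.08 in WR and -0.03 and 0.04 in RWR by its brighter probe, and its second probe read 0.15 and -0.05, then 0.17 and -0.31. The antagonist Il1rn, which blocks the IL-1 receptor, had 0.73 and -0.62 in WR and 0.61 and -0.23 in RWR by its brighter probe (A_44_P462661). Its other probe (A_44_P112890), well above background in no channel, had -1.23 and 1.22, then -1.89 and 1.24. The probes of Il1rn thus favoured opposite dyes on the same 4 chips, and each gave a pair mean within 0.32 of 0.

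Il1b, the proinflammatory cytokine IL-1 beta, was measured by 2 probes. The brighter one (A_43_P14911, 10 spots) read 0.19 and -0.32 in WR and 0.03 and -0.72 in RWR, a mean of -0.35 ± 0.53 in RWR (SD, 2 chips). The second (A_44_P230320) read 0.18 and -0.75 in WR and -0.28 and -1.42 in RWR, a mean of -0.85 ± 0.80. Both RWR means were below 0, but only the chip with RWR in Cy3 was past the lower limit, and neither probe was called. Of the 10 spots of the brighter probe, 9 were below 0 on chip 4, 8 on chip 2 and 4 on chip 1, and on chip 3 it was 4 of 9. On chip 4 the sedentary dye was well above background for both probes and the RWR dye for neither. On chip 3, where both dyes of both probes were well above background, the ratios were 0.03 and -0.28.

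Il1a, the sister cytokine IL-1 alpha, read -1.01 and 1.37 in WR and -2.06 and 1.13 in RWR. Whichever pool was in Cy3 was brighter, and the pair means were 0.18 ± 1.68 and -0.47 ± 2.25.

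Tnf was printed as 10 spots and read 0.33 and -0.32 in WR and -0.24 and -0.43 in RWR (mean -0.34 ± 0.13, SD of 2 chips). None of its spots was well above background in either dye on any chip. On chip 4 its 10 spots ran from -1.12 to 0.61, with 8 below 0 and 2 above, and on chip 3 from -1.21 to 0.39, with 6 below and 4 above. In WR, 1 of 10 spots was below 0, 5 above and 4 at 0 on chip 1, and 7 were below and 3 above on chip 2. The SD between single spots was 0.51 on chip 3 and 0.61 on chip 4.

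The other probes with 10 spots give the spread within a chip, where all spots meet the same pools. Il6, the cytokine IL-6, read -1.33 ± 0.35 (SD, 9 spots) and 1.86 ± 0.51 (9 spots) in WR and -1.94 ± 0.61 (8 spots) and 0.93 ± 0.37 (9 spots) in RWR. On each chip all its spots had 1 sign, and the sign turned with the dye. Ifng, interferon gamma, also turned with the dye, at -1.10 ± 0.45 and 1.81 ± 0.44 in WR and -1.60 ± 0.40 and 0.90 ± 0.86 in RWR, well above background in no channel and with 1 of 9 spots on chip 4 below 0. Il10, an anti-inflammatory cytokine, read -0.58 ± 0.34 and 0.57 ± 0.25 in WR and -0.41 ± 0.34 and 0.47 ± 0.16 in RWR, with pair means of -0.0038 and 0.03 and 1 of 10 spots on chip 3 above 0.

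Cntf was the exception among these 6 probes. It was well above background in all 8 channels and read -0.10 ± 0.10 and -0.17 ± 0.06 in WR and -0.00030 ± 0.08 and -0.17 ± 0.04 in RWR (SD over 9 or 10 spots). The pair means were -0.13 ± 0.05 in WR and -0.09 ± 0.12 in RWR (SD, 2 chips). All 9 spots on chip 2 and all 10 on chip 4 were below 0, on chip 1 it was 9 of 10, and on chip 3 it was 6 of 10.

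**Figure D4:**
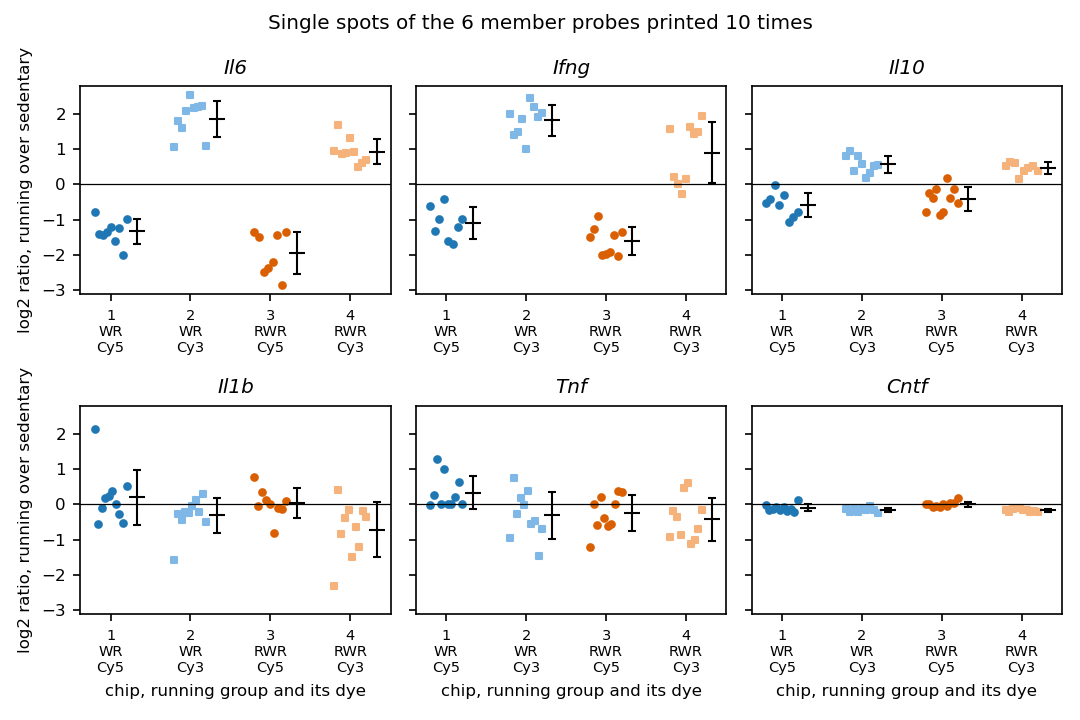
Log2 ratio of running over sedentary of each spot on each chip (horizontal axis: chip, running group and its dye) for the 6 member probes printed 10 times, with the mean and SD of the spots beside them in black. Spots flagged as outliers are left out. The means of Il6, Ifng and Il10 lie below 0 with the running pool in Cy5 and above 0 with it in Cy3, Il1b and Tnf have spots on both sides of 0 on every chip, with most below 0 on chips 2 and 4, and Cntf stays within 0.25 of 0.

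The receptors of the gp130 group moved little. Il6st read 0.18 and -0.16 in WR and 0.06 and -0.26 in RWR, and Il6r read -0.10 and 0.04 in WR and 0.0035 and 0.03 in RWR. Lifr, the receptor chain for LIF and CNTF, read -0.11 and 0.05 in WR and -0.39 and 0.22 in RWR. Il11ra1 read -0.25 and 0.03 in WR and -0.19 and 0.11 in RWR. None of the 4 had a pair mean beyond 0.11 from 0. Of their ligands, Lif, leukemia inhibitory factor, read 0.65 and -0.39 in WR and 0.37 and -0.16 in RWR, brighter in Cy5 on every chip. Osm, oncostatin M, which was not well above background, read 0.63 and -0.37 in WR and -0.02 and -1.17 in RWR.

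In the common gamma group, whose cytokines steer lymphocytes, Il15 had the highest WR mean of the bright probes with the same sign on both chips, 0.32 ± 0.41 (SD, 2 chips), from 0.60 and 0.03. In RWR it read 0.26 and -0.31. Il4r, the IL-4 receptor alpha chain, had the lowest RWR mean of the bright probes, -0.24 ± 0.08, from -0.30 and -0.18, and read -0.17 and 0.05 in WR. Both RWR values were below 0 and inside the lower fold limit. Il2rb, the beta chain of the IL-2 receptor, read 0.33 and 0.57 in WR and 0.50 and 0.09 in RWR, but was well above background only in the Cy5 dye of chips 3 and 4. Il17re, a receptor of the IL-17 family, read -0.08 and 0.49 in WR and -0.15 and -0.06 in RWR.

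Il13ra1, the IL-13 receptor alpha chain, had 4 probes. The brightest (A_44_P741723) read 0.0045 and 0.28 in WR and 0.11 and -0.02 in RWR. One of the dimmer probes (A_44_P362915) read 0.75 and -2.31, then 1.32 and -0.59, and another (A_44_P948250) read -1.09 and 1.43, then -1.25 and 0.05. In the RWR pair the last probe was well above background in the sedentary dye on both chips and in the RWR dye on neither. On chip 4 the RWR signal was nevertheless the higher of the 2, so no fold is given for the pair. The other probes of the gene had RWR means of 0.04, -0.05 and 0.36.

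Between probes of the same gene the ratios could differ widely on 1 chip. Of the 9 genes with several probes, 3 (Il13ra1, Il1rn and Tnfrsf12a) had a probe brighter in Cy3 on all 4 chips and another brighter in Cy5 on all 4, and none had 2 probes that favoured the same dye throughout. Both probes of Tnfrsf12a, the receptor of the cytokine TWEAK, were well above background in all 8 channels. They read -0.25 and 0.26 against 0.23 and -0.19 in WR, and -0.33 and 0.32 against 0.05 and -0.09 in RWR. Their pair means were 0.0021 and 0.02 in WR and -0.0056 and -0.02 in RWR.

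Il22ra2, the soluble receptor that neutralizes IL-22, had the lowest chip value of the families. Its brighter probe (A_44_P151482) read -0.32 and -0.36 in WR, a mean of -0.34 ± 0.03, and -0.18 and -3.36 in RWR, a mean of -1.77 ± 2.25 (SD, 2 chips). The WR pair and chip 3 were well above background in both dyes, and on chip 4 the RWR dye was not. The second probe (A_44_P377298) read -1.47 and 2.59 in WR and -2.43 and 2.57 in RWR.

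Other low values of the RWR pair came from both chips. Below the lower limit were 17 member probes on chip 3 (21.8%, against 15.5% of all probes) and 14 on chip 4 (17.9%, against 15.9%). On chip 4, 55 of 78 member probes were well above background in the sedentary dye and 38 in the RWR dye, and over all probes it was 82.0% and 68.3%. On chip 3 the counts were 47 and 48. In 17 member probes the sedentary dye of chip 4 was well above background and the RWR dye was not. Of these, 11 had a ratio below 0, and 7 had been well above background in both dyes on chip 3. Tnfrsf19, a receptor found on neural progenitors and glia, read 0.46 on chip 3 and -1.49 on chip 4, after 0.64 and -0.35 in WR. Tnfrsf1b, the TNF receptor typical of immune cells and microglia, read 0.65 and -0.86 in RWR and 0.60 and -0.76 in WR. The part of the unequal dye detection on chip 4 in these values was not tested.

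Among the TNF receptors and ligands with bright probes, Tnfrsf11b had the highest RWR mean of those with the same sign on both chips. Tnfrsf11b, osteoprotegerin, a decoy for the ligand RANKL, read 0.30 and 0.22 in RWR (mean 0.26 ± 0.06, SD of 2 chips) and 0.16 and 0.01 in WR (mean 0.08 ± 0.11). All its values were above 0 and inside the upper limit. Tnfrsf9, the costimulatory receptor 4-1BB, read 0.13 and 0.21 in RWR and 0.20 and -0.24 in WR. Its ligand Tnfsf9 read 0.59 and -0.00073 in RWR and 0.26 and -0.28 in WR.

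Tnfrsf1a read -0.33 and 0.30 in WR and -0.21 and 0.21 in RWR, so its pair means were -0.02 ± 0.44 and -0.0040 ± 0.30. Tnfsf13, the B cell ligand APRIL, read -0.04 and -0.16 in WR and 0.06 and 0.02 in RWR. Ltb, lymphotoxin beta, read -0.07 and -0.09 in WR and -0.18 and 0.19 in RWR. Tnfrsf4, the receptor OX40, read 0.12 and 0.08 in WR and -0.16 and 0.20 in RWR. None of these means lay further than 0.11 from 0.

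The remaining bright probes mostly followed the dye. Tnfsf4, the ligand of OX40, read 0.45 and -0.15 in WR and 0.50 and -0.23 in RWR, and Tnfsf12, the ligand TWEAK, read 0.54 and -0.24, then 0.41 and -0.06. Tnfsf15 read 0.57 and -0.44 in WR and 0.15 and -0.31 in RWR, Il24 read 0.40 and -0.20, then 0.34 and -0.16, and Ifngr1 read 0.22 and -0.11, then 0.10 and -0.08. In all 5 the pool in Cy5 was the brighter on each chip. Il3ra, the alpha chain of the IL-3 receptor, stayed within 0.05 of 0, and Il12a, a subunit of IL-12, read 0.04 and 0.09 in WR and 0.16 and -0.14 in RWR.

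Of the dim receptors and ligands not yet named, several were close to a limit on both chips or moved on 1 chip. Tnfsf10, the death ligand TRAIL, well above background in no channel, read 0 and -0.33 in WR and -0.39 and -0.44 in RWR, just short of a call. The brighter probe of Tnfrsf14, a receptor of lymphocyte activation, read 0.51 and 0.41 in WR and 0.27 and 0.02 in RWR, while its second probe read 1.22 and -2.66, then 3.17 and -2.82, the highest chip value of the families. Il10ra, the IL-10 receptor chain, read -0.24 and -0.44 in WR and -0.11 and -0.10 in RWR. Tnfrsf18, the receptor GITR, read 0.12 and 0.12 in WR and -0.10 and 1.02 in RWR. In each of these probes, at least 1 dye of each pair was not well above background.

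The rest of the dim members changed sign with the dye or had a ratio listed at 0. Il2, Il3, Il4, Il23a and Tnfrsf8 were brighter in Cy3 on every chip by their brightest probe. Examples are -1.37 and 0.69 in WR for Il2 and -0.91 and 0.02 in RWR for Tnfrsf8. Il13 and Il21r were brighter in Cy5, at 1.16 and -1.23 and at 1.38 and -1.31 in WR. For Il13ra2 and Il1rl2 the ratio was listed at 0 on 3 chips, and for Il12b and Il5ra on 2, with 2.40 for Il5ra on chip 2. Il9r and Tnfsf11, the ligand RANKL, each had 1 chip at 0, and Tnfsf11 read 1.21 on chip 2. Il1r2, the decoy IL-1 receptor, read 0.96 and -0.12 in WR and -0.43 and 0.45 in RWR.

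RWR was set against WR by subtracting chips of the same dye order, chip 3 minus chip 1 and chip 4 minus chip 2, which takes the sedentary pools of both pairs to be the same. By the same fold limits in both differences, 9 of 78 member probes (11.5%) passed, beside 5.23% of all probes. Lower in RWR were 7, beside 4.30% of all probes, and higher were 2, beside 0.924%. The lower ones were probes of Il2ra (A_44_P452261, differences -0.60 and -2.03), Il7 (-0.43 and -1.30), Il6 (-0.61 and -0.93), Osm (-0.65 and -0.80), Ifng (-0.50 and -0.91), Il1b (A_44_P230320, -0.46 and -0.67) and Il1rl1, the receptor of IL-33 (-0.43 and -0.72). The higher ones were Il5 (1.24 and 1.84) and Il18rap, a chain of the IL-18 receptor (1.08 and 1.02).

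None of these 9 probes was well above background in all 8 channels. Il7, Il2ra, Osm, Ifng and Il18rap were so in no channel, and Il5 in 1. In Il7, Il5 and Il1rl1 a difference rests on a ratio listed at 0. For Il6 and Ifng the differences lie between ratios that change sign with the dye, at -1.94 against -1.33 and 0.93 against 1.86 for Il6. Among the 33 bright probes, 12 had the same sign in both differences, and the differences ran from -0.55 to 0.61. The same share among all bright probes of the array was not counted. With a normexp background correction (offset 50), which keeps dim signals away from 0, or with none, 0 of 78 probes passed. Few probes of the whole array did either. Both settings shrink the ratios of dim probes, so a count of 0 under them cannot decide whether the 9 differences hold. Over all probes, 379 higher and 1765 lower became 18 and 24 with normexp, and 2 and 4 without correction.

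**Figure D5:**
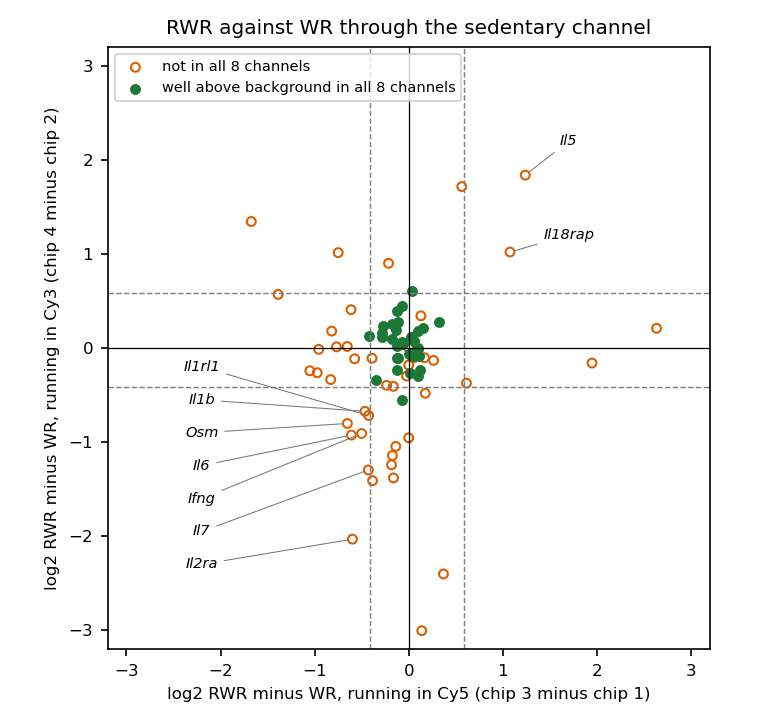
Log2 ratio in RWR minus that in WR for the 78 member probes, with the running pool in Cy5 (horizontal axis) and in Cy3 (vertical axis), and the fold limits as dashed lines. The 9 named probes pass the limits on both axes, and the 33 bright probes (filled) lie between -0.55 and 0.61.

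Genes that carry the signals of these receptors were listed separately. Of 78 listed partners, 40 had a named probe and 25 were well above background in all 8 channels by their brightest probe, and 0 were called in WR or RWR. Their medians were -0.01 and -0.0079. Myd88, the adaptor of IL-1 and Toll-like receptors, read -0.18 and -0.32 in WR and -0.37 and -0.11 in RWR, below 0 on every chip. Stat2, a transducer of interferon signals, read -0.37 and -0.34 in WR and -0.02 and -0.14 in RWR. Stat3, the main target of gp130, read 0.02 and -0.08 in WR and 0.04 and -0.12 in RWR. The STAT inhibitor Socs1, at 2.04 and -2.43, then 0.91 and -2.30, and the oncostatin receptor Osmr, at -1.26 and 1.86, then -1.74 and 1.23, changed sign with the dye as dim members did.

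Markers of hippocampal cells were measurable throughout. By the brightest probe of each gene, all named genes of the neuron, astrocyte and oligodendrocyte lists were well above background in all 8 channels. The lists were those for principal neurons (5 of 10 genes named), neurons (7 of 8), astrocytes (7 of 7) and oligodendrocytes (6 of 7). For microglia it was 10 of 10 named out of 15, with means of -0.11 to 0.12 in WR and -0.28 to 0.28 in RWR, and 0 called. In RWR 5 of these 10 microglia genes were above 0 on both chips and 2 below. Their RWR median was 0.12, and that over all named genes -0.0047. At the ends, P2ry12, a receptor of resting microglia, read 0.28 and 0.29 in RWR, and Itgam, the integrin CD11b, read -0.07 and -0.49. Of 8 named lymphocyte genes out of 13, 1 was well above background in all 8 channels and 4 (Cd2, Cd4, Cd5 and Cd79b) in none. For endothelium 3 of 4 named genes and for blood 2 of 2 were well above background in all 8 channels, with 0 called. Of 6 named choroid plexus genes 2 were, and 1 was called lower in WR, Ttr, the carrier transthyretin, at -0.72 and -0.99 (RWR 0.20 and 0.04). Of 6 named pituitary genes 4 were, and 1 was called lower in both groups, Prl, prolactin, at -1.52 and -0.44 in WR and -1.47 and -0.94 in RWR, with the running dye not well above background on any chip. As the dyes are labelled, Prl was thus below 0 in both dye orders of each pair. The part of these cell types in the cytokine ratios was not tested.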

How the data were processed

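Two-colour chips of a rat whole-genome oligo array were read from the deposited scanner files. Per the file headers, the authors used Agilent Feature Extraction 11.0.1.1, which subtracted background and normalized the dyes by LOWESS. The deposited processed signal is an intensity per dye. The deposited log10 ratio is Cy5 over Cy3, set to 0 where not measurable (2287 to 3749 of 45018 features per chip). The deposited p-value comes from a single-chip error model. The deposited series matrix is the log10 of Cy5 over Cy3 processed signal at every feature.

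Here control spots and outlier spots (118 to 140 per chip, 17 of the members') were removed, the log10 ratios were expressed as log2 of running over sedentary, and spots of a probe were averaged. No spot was saturated, and 67.5% to 82.5% of spots per dye were well above background. A probe counted as well above background where more than 50% of its spots did. Accessions were matched to RefSeq names (GRCr8) for 10768 probes. A gene's brightest probe has the highest mean signal. Counts use the 41003 probes with values on all chips. The members and lists were chosen with earlier results of these data known. Named genes were those called, those past the limits between RWR and WR, Il1b, Il2ra, Tnf and Il10, probes of 10 spots, and the 5 highest and 5 lowest means among bright probes of equal sign, with other members given as examples of their group. Alternatives used limma 3.58.1 (normexp, offset 50, or no background correction, then loess), chip centring, other limits and filters, and single chips. Scripts were tested on simulated data (Python 3.11.15, pandas 2.3.3).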

Additional observations from a re-analysis of the deposited data

Results flagged for a closer look

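Tnfsf13, the ligand APRIL, had ratios of opposite sign in the running groups. Its ratios over sedentary were below 0 on both WR chips (-0.04 and -0.16) and above 0 on both RWR chips (0.06 and 0.02), and the mean in RWR minus that in WR was 0.14 on the log2 scale. The probe was well above background in all 8 channels. With 1 pool per group the difference was not tested, and every value lay inside the fold limits. The pattern was looked for among the named probes only, and this probe was named for equal signs within each pair. The share of all probes with the pattern was not counted.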

How the results depend on the processing

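The WR count of 0 was also 0 with limits of equal size, either other background setting, chip centring, the series matrix, outlier spots kept and both filters on dim probes. Limits on the mean of a pair gave 6 in WR (7.69%, against 6.54% of all probes), 15 in RWR (19.2%, against 9.03%) and 24 for RWR against WR (30.8%, against 14.3%). The single RWR call became 0 with an error model p under 0.01 on at least 1 chip, with normexp, with no background correction, and with a filter on probes well above background in both dyes or in at least 1 dye. The 9 probes between RWR and WR became 5 with limits of equal size, 0 with normexp, 0 without background correction, 0 with the filter on both dyes and 1 with that on at least 1 dye. Over all probes, calls fell from 225 to 7 in WR and from 608 to 17 in RWR with normexp, and to 8 and 10 without correction. Between RWR and WR, 379 higher and 1765 lower fell to 18 and 24 with normexp, and to 2 and 4 without correction. Both settings shrink the ratios of dim probes, so a count of 0 under them cannot decide whether a call holds. Shares of all probes were not counted for limits of equal size, the filters or the p on at least 1 chip. Leaving out chip 1 or 2 gave 28 or 26 calls in WR (35.9% or 33.3%, against 28.9% or 24.0% of all probes), and with the error model p 7 or 1 (8.97% or 1.28%, against 7.80% or 3.91%). Leaving out chip 3 or 4 gave 22 or 26 in RWR (28.2% or 33.3%, against 25.7% or 25.1%), and with the error model p 5 or 7 (6.41% or 8.97%, against 6.27% or 6.89%). Leaving out chips 1 and 3 or 2 and 4 gave 24 or 25 between RWR and WR (30.8% or 32.1%, against 21.5% or 18.9%), so 1 chip cannot stand for a pair.

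The median of the members was 0.0168 in WR. It was -0.0157 with normexp, -0.0060 without background correction, 0.0168 after centring, 0.0653 in the series matrix and from the signal ratio, 0.0367 with outlier spots, 0.0125 and 0.0127 under the filters on both dyes and on 1 dye, and 0.0127 over all probes of a gene, with 0 to 0 on single chips. In RWR it was -0.0056, and 0.0302, 0.0055, -0.0026, -0.0040, -0.0152, -0.0040, 0.0121, 0.0058 and -0.0341 in the same order (the signal ratio after the outlier spots), with -0.00030 to 0 on single chips. The cause was not tested. Of the named probes' values, 10 of 56 moved by more than the SD of their pair with normexp and 12 of 56 without correction. That SD is wide where the ratio changed sign with the dye, so the other values are not thereby stable. Il6 in RWR went from -0.50 to -0.06 with normexp, within its SD of 2.03. For the only called value, Il2ra (A_44_P452261) in RWR, the pair mean stayed below 0 but shrank. It was -1.04, and became -0.10 with normexp and -0.09 without correction. With normexp its 2 chips no longer shared a sign, at -0.30 and 0.09. Sign changes of values that were not called were not counted and did occur, as for Il17re in RWR (-0.11, and 0.04 with normexp). The values are limited by dim signal, with 45 of 78 probes not well above background in at least 1 channel, by ratios that change sign with the dye, in 23 of 33 bright probes in each pair, and by 1 pool per group. No paired analysis was possible because the labels give no replicate numbers and the chips of a pair hold the same pools.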
